A study of Danio rerio with 8 samples.

Results

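The glutathione, peroxiredoxin and NRF2 system of the zebrafish was taken as the gene IDs whose symbol names a glutathione S-transferase, glutathione peroxidase, peroxiredoxin, thioredoxin-family protein, NFE2L factor, KEAP1, superoxide dismutase, subunit of glutamate-cysteine ligase, haem oxygenase, catalase, glutathione reductase or NQO1. The symbols txnip and gstcd were left out. Of 32520 gene IDs, 67 carried such a symbol, and 58 of these had a mean of at least 1 TPM over all libraries, among 16560 IDs at that level. TPM is the share of a transcript among all transcripts of a library, corrected for its length, so levels of different genes can be compared on it. The members were selected by name, in a choice made with earlier results of these data known.

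RNA came from whole larvae aged 2 days, with no treatment. The 4 mutant libraries were from larvae homozygous for the sa24730 allele of nphp8 (genotype nphp8(sa24730) m/m), which were maternal zygotic mutants and so lacked wild-type product from the mother as well. The 4 control libraries carry a wild-type (WT) genotype in the labels and are called siblings in the series design. A homozygous mutant mother has no wild-type offspring, so wild-type controls would have had other mothers. Parentage and genotype cannot be told apart here. The sources used here do not state how many larvae or clutches went into a library. What a p-value here measures is the spread among these libraries alone, which may be technical. The title of the series asks about circadian clock genes as part of a compensatory mechanism, and the redox genes were compared between the same groups.

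Cells hold reactive oxygen in check with enzymes in series. Superoxide dismutases turn superoxide into hydrogen peroxide, and catalase, the glutathione peroxidases and the peroxiredoxins remove peroxides. Peroxidases and peroxiredoxins mostly draw on glutathione or thioredoxin that reductases regenerate with NADPH. NRF2, encoded by NFE2L2, is the transcription factor that switches on many of these enzymes. KEAP1 marks it for degradation until electrophiles or oxidants modify KEAP1. In zebrafish, NFE2L2 and KEAP1 both exist as duplicated copies, and nqo1 and gstp1 are commonly used readouts of the pathway.

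The transcript of the mutated gene checked the labels. RPGRIP1L (ENSDARG00000051754), the listed name of nphp8, ranged from 2.17 to 2.75 TPM in controls and from 0.72 to 0.78 TPM in mutants (exact permutation test, two-sided, p = 0.0286, the smallest that 4 against 4 allows). Between 23637 and 23964 IDs were above 0 in a library, and each library correlated with every other of its group at a Spearman rho of at least 0.9858, across genes, which are not independent replicates. No library stood apart by these measures, and the depth is unknown because TPM carries no count. The share of TPM from mitochondrial genes did separate the groups, from 1.798% to 1.934% in controls and from 2.064% to 2.242% in mutants. Every marker found for 9 tissues or cell classes of the larva, from red cells to pronephros, was above 0 in at least 1 library. Some were barely so. The liver marker fabp10a was at 0.26 TPM in mutant replicate 3 and at 0 in every other library. The liver markers TTR and hp reached at most 0.5 and 0.4 TPM.

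The redox genes changed often, by small amounts and in both directions. Of the 58 tested members, 14 rose, 14 fell and 30 did not pass (limma on log2(TPM + 1), adjusted p under 0.05 over all genes). That is 48.3% of the members, beside 22.6% of all genes tested (9.32% higher and 13.3% lower). The larger share of lower calls over all genes depended on the scaling, since 1543 genes rose and 2202 fell as deposited, 1800 and 1943 after median-of-ratios rescaling, and 1821 and 1769 after rescaling without mitochondrial and the 50 most abundant genes. Among genes of at least 5 TPM the corresponding shares were 48.1% of members and 29.9% of all genes. The TPM of the groups did not overlap for 27 members (46.6%), beside 26.1% of all genes. Ratios of mean TPM, mutant over control, ran from 0.675 to 1.39 among the 28 that passed. Their median absolute log2 change was 0.28, beside 0.26 for all genes that passed. The median log2 change was -0.04 over the members and -0.01 over all genes tested.

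**Figure D1:**
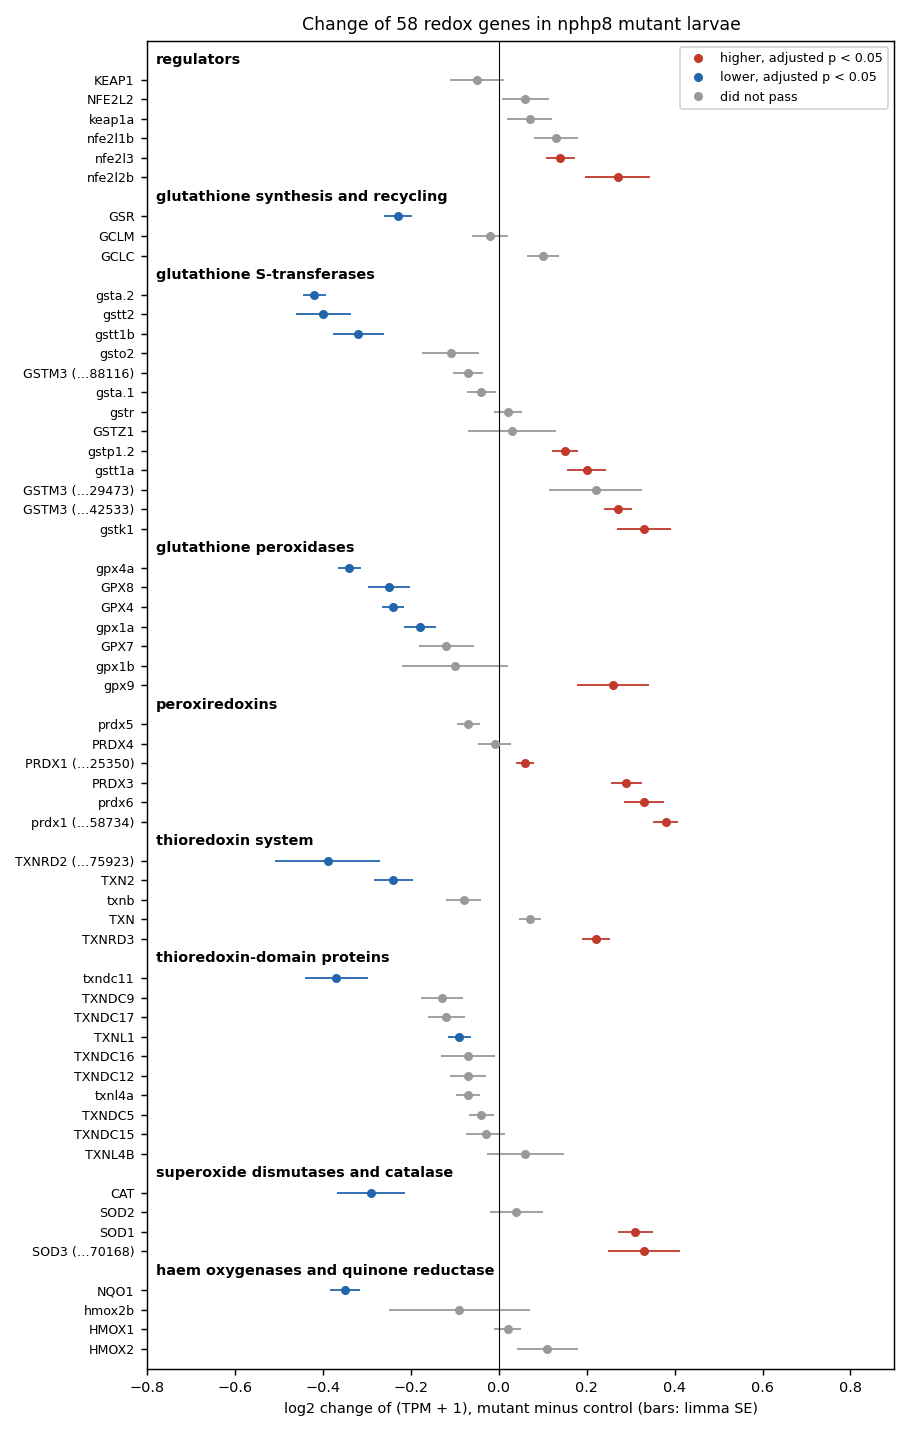
Log2 change of (TPM + 1), mutant minus control, of the 58 tested members by role. Points are the estimates, bars the limma standard error, and colours the call, with the last digits of the gene ID where a symbol is shared. Glutathione peroxidases lie mostly to the left of 0 and peroxiredoxins mostly to the right.

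Larvae are mixtures of tissues, and in these bulk libraries fewer cells of a type and less RNA per cell cannot be told apart. Tissue markers moved with genotype as well, and their counts stand beside 9.32% of all genes higher and 13.3% lower. The summed level of 14 red cell marker IDs ranged from 9999.2 to 10323.2 TPM in controls and from 16515.0 to 17261.3 TPM in mutants, with 11 of 14 tested higher and 1 lower. Skeletal muscle (10 of 12 higher, 1 lower) and lens markers (10 of 11 higher, 0 lower) had summed ratios of 1.19 and 1.48. Those of liver (6 of 9 higher, 0 lower) and neurons (6 of 11 higher, 0 lower) had 1.07 and 1.09. Only 9 of the 12 liver IDs had the mean of 1 TPM needed for testing, and fabp10a, TTR and hp did not. Whether the liver IDs that were tested stand for liver RNA at this age was not tested. Most of the liver sum, 3843.2 of 5149.1 TPM in controls, came from apoa1b, which did not pass (limma adjusted p = 0.0666). Hatching gland markers (5 of 7 lower, 0 higher) stood at 0.877 and those of skin and ionocytes (7 of 13 lower, 1 higher) at 0.931. Markers of macrophages and neutrophils (2 of 12 higher, 4 lower) and pronephros (2 of 14 higher, 2 lower) had summed ratios of 0.998 and 1.02. The ratio of 0.998 combined changes in both directions. Of 430.2 TPM in controls, 254.2 came from lyz, which rose to 280.2 TPM (limma adjusted p = 0.00238). The MFAP4 ID ENSDARG00000090783 fell from 48.3 to 27.9 TPM (limma adjusted p = 5.11e-05). Marker names were matched by symbol, synonym or symbol without copy letter, which brought in further IDs. The pronephros IDs included PAX5, not a listed name, and MFAP4 brought in several IDs. The lower red cell ID was a second SLC4A1 ID, at 2.54 TPM in controls, and the lower muscle ID was 1 of several TNNI2 IDs. These markers share the libraries of every result below, and their part in the changes of the redox genes was not tested.

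Among the regulators 1 of the NRF2 copies rose and the KEAP1 copies did not pass. Of 6 tested regulators, 2 rose and 0 fell, a called share of 33.3% beside the 22.6% of all genes. The copy nfe2l2b (ENSDARG00000089697), the second zebrafish copy of NRF2, was the lowest of all 58 tested members. It stood at 1.04, 1.29, 1.17 and 1.08 TPM in controls 1 to 4, against 1.66, 1.47, 1.61 and 1.63 TPM in mutants 1 to 4. Every mutant library was above every control, a ratio of 1.39 at a level of few transcripts (log2 change 0.27, SE 0.0748, limma adjusted p = 0.0259). Its call was lost without control replicate 1 (adjusted p = 0.0626) or 4 (0.0642) and without mutant replicate 1 (0.0662), 3 (0.0532) or 4 (0.0607), and with the replicate number as a block (0.0814). The copy listed as NFE2L2 (ENSDARG00000042824) was at 9.34 ± 0.627 TPM in controls against 9.80 ± 0.33 TPM in mutants (SD, n = 4 each) and did not pass (limma adjusted p = 0.425).

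The related factor nfe2l3 was the most abundant regulator. It rose from 42.5 ± 0.783 to 47.0 ± 1.71 TPM (SD, n = 4 each; limma adjusted p = 0.013), without overlap between the groups. The factor nfe2l1b, a copy of the NRF1 gene that controls proteasome genes in mammals, was at 6.24, 5.97, 6.07 and 6.23 TPM in controls 1 to 4, against 6.79, 7.20, 6.44 and 6.80 TPM in mutants 1 to 4. The groups did not overlap, yet the gene did not pass (limma adjusted p = 0.0846). It passed after median-of-ratios rescaling (0.0481) and after rescaling without mitochondrial and the 50 most abundant genes (0.0477). Its other copy, NFE2L1 (ENSDARG00000030616), lay below 1 TPM over all libraries, at 1.02 ± 0.0993 TPM in controls against 0.72 ± 0.0469 TPM in mutants (SD, n = 4 each). With no filter on low values it was lower, with a log2 difference of -0.23 (limma adjusted p = 0.0322), at a level where the pseudocount shrinks the change. The KEAP1 copies stood at ratios of 0.961 for KEAP1 (ENSDARG00000074634) and 1.05 for keap1a (limma adjusted p = 0.576 and 0.379).

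NQO1 fell, while the 3 haem oxygenases did not pass. NQO1, a quinone reductase and a classical NRF2 target, was at 76.7, 76.8, 72.2 and 75.6 TPM in controls 1 to 4, against 58.5, 58.1, 62.4 and 57.1 TPM in mutants 1 to 4. All mutant libraries were below all controls, and the means were 75.3 ± 2.16 and 59.0 ± 2.36 TPM (SD, n = 4 each; ratio 0.783, log2 change -0.35, SE 0.0347, limma adjusted p = 9.6e-05). HMOX1, the inducible haem oxygenase and another NRF2 target, was at 70.1 ± 2.04 TPM in controls against 71.1 ± 1.77 TPM in mutants (SD, n = 4 each; limma adjusted p = 0.69). HMOX2 (ENSDARG00000114695) and hmox2b, the constitutive enzymes, had ratios of 1.08 and 0.93 and did not pass.

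Of the 3 genes for making and recycling glutathione, glutathione reductase fell and the synthesis genes did not pass. GSR, which returns oxidised glutathione to its reduced form, ranged from 45.8 to 47.5 TPM in controls against 38.2 to 41.1 TPM in mutants, a ratio of 0.847 without overlap (log2 change -0.23, SE 0.0312, limma adjusted p = 0.000609). GCLC, the catalytic subunit of glutamate-cysteine ligase and the rate-limiting step of synthesis, was at 17.6, 17.7, 18.6 and 17.2 TPM in controls 1 to 4, against 18.7, 19.6, 19.3 and 18.8 TPM in mutants 1 to 4. Its groups did not overlap, but by less than the controls' own range, and it did not pass (limma adjusted p = 0.0775). Both rescalings of the libraries brought it past the threshold (0.0344 and 0.0363). The modifier subunit GCLM had a ratio of 0.987 (limma adjusted p = 0.795).

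The glutathione S-transferases, which join glutathione to electrophiles, moved in both directions. Among 13 tested genes 4 rose and 3 fell, with 6 short of the threshold, a called share of 53.8% beside the 22.6% of all genes. Their summed level was 888.1 ± 20.7 TPM in controls and 911.8 ± 10.4 TPM in mutants (SD, n = 4 each). The alpha-class gene gsta.2 had the largest absolute log2 change of the tested members with a pseudocount of 1 TPM. With a pseudocount of 0.1 TPM, TXNRD2 (-0.55), gstt2 (-0.50) and nfe2l2b (0.45), all low in level, exceeded its -0.42. It was at 82.0, 82.9, 82.2 and 83.5 TPM in controls 1 to 4, against 61.9, 59.6, 62.0 and 63.0 TPM in mutants 1 to 4. The libraries of each group lay close together and the groups far apart (ratio 0.746, log2 change -0.42, SE 0.0255, limma adjusted p = 3.43e-06). The gene gsta.1 lies near it, with 1 protein-coding gene between them in the RefSeq table of the GRCz12tu assembly. It was the more abundant of the pair, at 221.7 ± 9.55 TPM in controls against 214.9 ± 5.31 TPM in mutants (SD, n = 4 each; limma adjusted p = 0.382). The ratio of gsta.1 to gsta.2 TPM ranged from 2.56 to 2.79 in control libraries and from 3.38 to 3.59 in mutant libraries, given as a description because the pair was singled out after its values were seen.

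Theta-class transferases went apart. The gene gstt2 was at 4.48, 4.06, 4.66 and 4.37 TPM in controls 1 to 4, against 2.89, 3.33, 3.02 and 3.11 TPM in mutants 1 to 4, a ratio of 0.703 without overlap (log2 change -0.40, SE 0.0628, limma adjusted p = 0.00157). Similarly gstt1b was at 14.3, 16.8, 15.8 and 16.6 TPM in controls 1 to 4, against 11.8, 12.6, 13.3 and 12.1 TPM in mutants 1 to 4. The groups did not overlap (ratio 0.787, log2 change -0.32, SE 0.0579, limma adjusted p = 0.0035). The copy gstt1a instead rose, from 53.0 ± 1.31 to 61.3 ± 3.96 TPM (SD, n = 4 each; limma adjusted p = 0.00929).

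Kappa-, mu- and pi-class members were higher where they passed. The gene gstk1, of the kappa class found in mitochondria and peroxisomes of mammals, was at 13.6, 11.2, 11.6 and 11.1 TPM in controls 1 to 4, against 15.8, 14.7, 15.2 and 15.1 TPM in mutants 1 to 4 (ratio 1.28, log2 change 0.33, SE 0.0616, limma adjusted p = 0.00402). Control replicate 1 was the highest of its group and still lay below every mutant library. Among the 3 IDs listed as GSTM3, ENSDARG00000042533 rose from 38.2 ± 1.12 to 46.2 ± 1.09 TPM (SD, n = 4 each; limma adjusted p = 0.000279). ENSDARG00000088116 (ratio 0.951) and ENSDARG00000029473 (ratio 1.23, mean 2.98 TPM) did not pass. The RefSeq table places 3 mu-class genes side by side, and reads shared among near-identical copies make single IDs of this symbol uncertain. The pi-class gene gstp1.2, the most abundant transferase and an NRF2 target in zebrafish, rose from 354.6 ± 12.2 to 394.3 ± 9.85 TPM (SD, n = 4 each; ratio 1.11, limma adjusted p = 0.00477), and its neighbour gstp1.1 reached at most 0.15 TPM. The transferases gsto2, gstr and GSTZ1 had ratios of 0.927, 1.01 and 1.01 and did not pass.

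Most glutathione peroxidases that passed were lower. These enzymes reduce peroxides, many but not all of them at the expense of glutathione and with a selenocysteine in the active site. Among 7 tested genes 4 fell and 1 rose, with 2 short of the threshold, a called share of 71.4% beside the 22.6% of all genes. The summed level of the class was lower in every mutant library than in any control (963.8 ± 25.9 against 791.1 ± 16.2 TPM, SD, n = 4 each). Most of that sum came from the copies of GPX4, the enzyme that reduces lipid peroxides in membranes and restrains ferroptosis in mammals. The copy gpx4a was at 548.0, 584.7, 546.1 and 570.4 TPM in controls 1 to 4, against 439.9, 439.8, 456.5 and 437.2 TPM in mutants 1 to 4. The highest mutant library lay well below the lowest control (ratio 0.788, log2 change -0.34, SE 0.0269, limma adjusted p = 1.8e-05). The copy listed as GPX4 (ENSDARG00000076836) fell from 286.8 ± 7.88 to 243.5 ± 4.05 TPM (SD, n = 4 each; ratio 0.849, limma adjusted p = 0.000144).

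The smaller peroxidases moved less uniformly. The cytosolic enzyme gene gpx1a fell from 50.9 ± 1.51 to 44.9 ± 1.82 TPM (limma adjusted p = 0.00705), and GPX8, a peroxidase of the endoplasmic reticulum, fell from 15.8 ± 0.43 to 13.1 ± 0.771 TPM (SD, n = 4 each; limma adjusted p = 0.00426). Both were without overlap between the groups. GPX7, also of the endoplasmic reticulum, and gpx1b had ratios of 0.921 and 0.923 and did not pass (limma adjusted p = 0.212 and 0.611). The member that rose, gpx9, overlapped between the groups, from 5.30 to 7.39 TPM in controls against 7.26 to 8.23 TPM in mutants (limma adjusted p = 0.0464). Leaving out any library but control replicate 4 ended its call (adjusted p from 0.0533 to 0.108), as did the replicate block (0.0819), no mean-variance trend (0.0582) and no filter on low values (0.0799). The genes gpx2 and gpx3 lay below 1 TPM in every library, at 0.53 TPM at most.

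**Figure D2:**
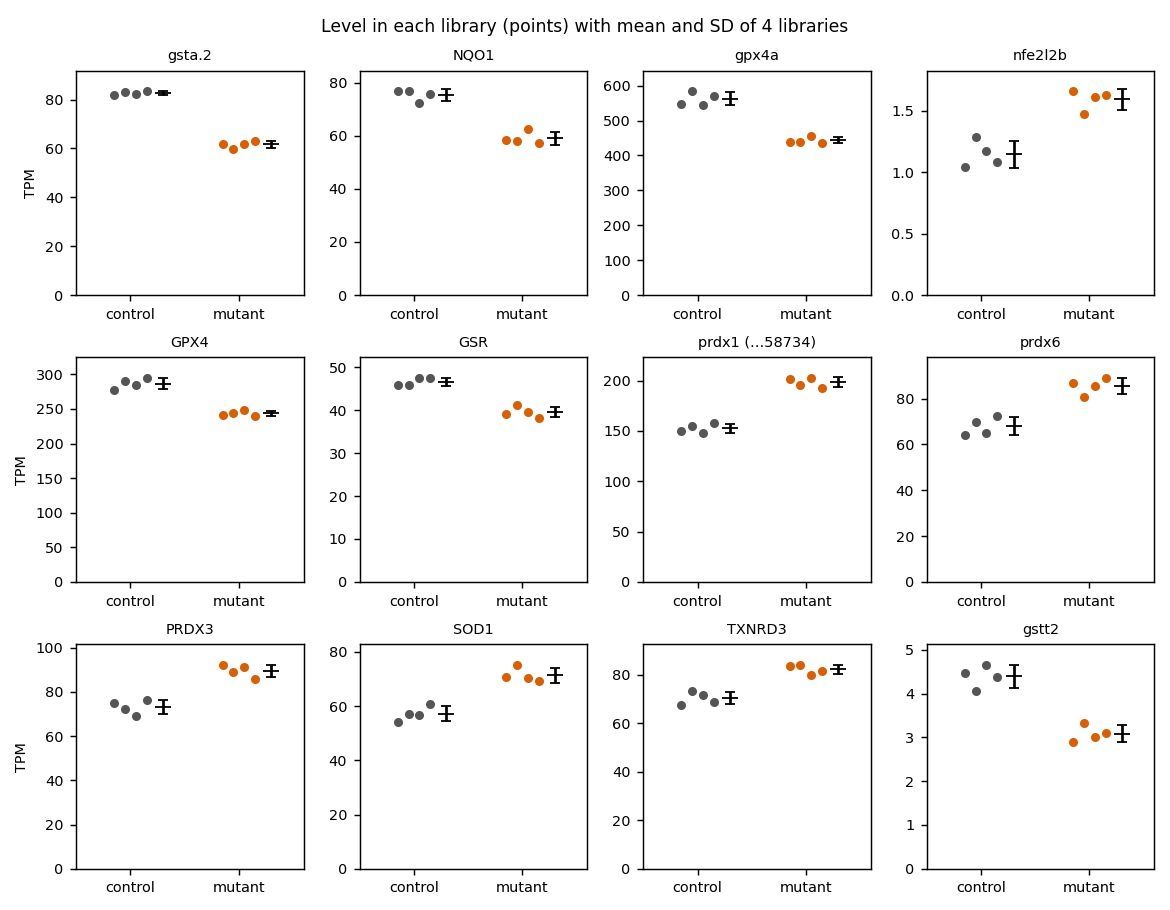
TPM of 12 members in each control and mutant library (points, axes from 0) with the mean and SD of 4 libraries (line and bar). The 12 were picked from members that passed without overlap, so the groups are apart in every panel by choice. The groups did not overlap for 27 of the 58 tested members (46.6%), beside 26.1% of all genes. The genes gsta.2, NQO1, gpx4a, GPX4, GSR and gstt2 are lower in mutants and the other 6 higher.

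Peroxiredoxins, which reduce peroxides through cysteines that thioredoxin renews in most of them, were higher where they passed. Among 6 tested genes 4 rose and 0 fell, with 2 short of the threshold, a called share of 66.7% beside the 22.6% of all genes. Their summed level was 1051.5 ± 23.3 TPM in controls and 1138.5 ± 12.9 TPM in mutants (SD, n = 4 each), without overlap. The ID listed as prdx1 with the number ENSDARG00000058734 was at 149.7, 154.6, 147.9 and 157.8 TPM in controls 1 to 4, against 201.9, 195.7, 202.7 and 192.6 TPM in mutants 1 to 4. It had the largest increase of the class (ratio 1.3, log2 change 0.38, SE 0.0282, limma adjusted p = 1.29e-05). Another ID, ENSDARG00000025350, is listed as PRDX1 as well. The RefSeq table gives prdx1 as an older name of prdx2, so which ID is which cytosolic peroxiredoxin is not settled here. That second ID was at 422.4 ± 4.89 TPM in controls against 441.2 ± 7.85 TPM in mutants (SD, n = 4 each; ratio 1.04) and sat at the threshold (limma adjusted p = 0.0498). Leaving out any of the 8 libraries ended its call (adjusted p from 0.0531 to 0.115), as did the replicate block (0.121), no mean-variance trend (0.21), no filter on low values (0.0604) and a pseudocount of 5 (0.0516).

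The other peroxiredoxins that passed, prdx6 and PRDX3, rose by amounts closer to that of ENSDARG00000058734 (log2 change 0.38). The increase of ENSDARG00000025350 was smaller (log2 change 0.06). The cytosolic prdx6, the member with a single catalytic cysteine and a phospholipase activity, was at 64.0, 69.8, 65.1 and 72.3 TPM in controls 1 to 4, against 86.8, 80.5, 85.6 and 89.0 TPM in mutants 1 to 4 (ratio 1.26, log2 change 0.33, SE 0.0451, limma adjusted p = 0.000689). The mitochondrial PRDX3 was at 74.9, 72.1, 69.3 and 76.1 TPM in controls 1 to 4, against 92.3, 88.9, 91.1 and 85.9 TPM in mutants 1 to 4 (ratio 1.22, log2 change 0.29, SE 0.0359, limma adjusted p = 0.000377). For both genes every mutant library exceeded every control. PRDX4, the peroxiredoxin of the endoplasmic reticulum, had a ratio of 0.996 and prdx5 of 0.954, and neither passed (limma adjusted p = 0.939 and 0.0932).

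In the thioredoxin system a cytosolic reductase rose and both mitochondrial IDs that were tested fell. Thioredoxin carries electrons to peroxiredoxins, and thioredoxin reductase, a selenoprotein, reloads it from NADPH. Among 5 tested genes 1 rose and 2 fell, a called share of 60% beside the 22.6% of all genes. TXNRD3, whose older names in the RefSeq table include txnrd1, rose from 70.3 ± 2.58 to 82.2 ± 1.84 TPM without overlap (SD, n = 4 each; ratio 1.17, log2 change 0.22, SE 0.0319, limma adjusted p = 0.000906). The mitochondrial thioredoxin TXN2 fell from 42.4 ± 1.29 to 35.8 ± 2.2 TPM, also without overlap (SD, n = 4 each; ratio 0.843, log2 change -0.24, SE 0.0453, limma adjusted p = 0.00429). TXNRD2 (ENSDARG00000075923), the mitochondrial reductase, was at 2.15, 3.03, 3.29 and 2.76 TPM in controls 1 to 4, against 1.55, 2.42, 1.71 and 1.90 TPM in mutants 1 to 4. The groups overlapped, since mutant replicate 2 exceeded control replicate 1 (ratio 0.675, log2 change -0.39, SE 0.119, limma adjusted p = 0.0387). Leaving out control replicate 2 (adjusted p = 0.0909), 3 (0.0946) or 4 (0.0757), or mutant replicate 1 (0.0988), 3 (0.0888) or 4 (0.074), ended its call, as did testing genes of any level (0.0719). A further ID listed as TXNRD2, ENSDARG00000094470, went the other way, with means of 0.17 TPM in controls and 0.482 TPM in mutants. It was below the filter and not tested. It was listed at 0 in 4 libraries and reached 1.42 TPM in mutant replicate 1, the library where the tested ID was lowest. Reads may have been divided between the IDs, so the fall of the tested ID may not hold for TXNRD2 as a whole.

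TXN was the most abundant member, at 1195.3, 1279.6, 1186.9 and 1221.8 TPM in controls 1 to 4, against 1279.2, 1262.6, 1279.8 and 1303.3 TPM in mutants 1 to 4. Control replicate 2 lay among the mutants, and the gene did not pass (ratio 1.05, limma adjusted p = 0.0742). It passed without that library (0.0131) and after rescaling without mitochondrial and the 50 most abundant genes (0.0367). The other cytosolic copy, txnb, had a ratio of 0.943 (limma adjusted p = 0.171) and passed only without control replicate 3 (0.0295).

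The thioredoxin-domain proteins include oxidoreductases of the endoplasmic reticulum and proteins with no antioxidant role. Among 10 tested genes 2 fell and 0 rose, a called share of 20% that is close to the 22.6% of all genes. Of these, txndc11, a partner of the oxidases that supply hydrogen peroxide for thyroid hormone synthesis in mammals, was at 10.19, 8.85, 9.98 and 8.58 TPM in controls 1 to 4, against 6.41, 6.75, 7.23 and 7.73 TPM in mutants 1 to 4 (ratio 0.748, log2 change -0.37, SE 0.0712, limma adjusted p = 0.00476). The groups did not overlap. TXNL1, a redox protein bound to the proteasome, fell to a ratio of 0.937 (limma adjusted p = 0.0301). Its call was lost without control replicate 2, 3 or 4 or mutant replicate 1, 2 or 3 (adjusted p from 0.0501 to 0.0787), with the replicate block (0.0687), with no mean-variance trend (0.0914) and after rescaling without mitochondrial and the 50 most abundant genes (0.0887). TXNDC17 (ratio 0.921, limma adjusted p = 0.0725) and TXNDC9 (ratio 0.912, 0.0732), which assists the cytosolic chaperonin and was the most abundant of this class, came closest among those that did not pass. TXNDC17 passed without control replicate 3 (0.0346) or mutant replicate 1 (0.0465) and with the replicate block (0.0408), and TXNDC9 without mutant replicate 4 (0.047). TXNDC5, a protein disulfide isomerase, and txnl4a, a component of the spliceosome, had ratios of 0.971 and 0.951, and TXNDC12, TXNDC15, TXNDC16 and TXNL4B lay between 0.931 and 1.05.

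The superoxide dismutases and catalase moved in opposite directions. Of 4 tested, SOD1 and SOD3 rose, CAT fell, and the mitochondrial SOD2 did not pass (ratio 1.02, limma adjusted p = 0.712). The called share was 75% beside the 22.6% of all genes. SOD1, the copper-zinc enzyme of the cytosol, was at 54.2, 57.2, 56.9 and 60.8 TPM in controls 1 to 4, against 70.6, 75.2, 70.5 and 69.1 TPM in mutants 1 to 4 (ratio 1.25, log2 change 0.31, SE 0.0398, limma adjusted p = 0.000431). The extracellular enzyme SOD3 (ENSDARG00000070168) was at 8.11, 8.51, 9.93 and 9.72 TPM in controls 1 to 4, against 13.5, 11.4, 10.8 and 11.1 TPM in mutants 1 to 4. Its groups did not overlap, though mutant replicate 1 stood above the rest (ratio 1.29, log2 change 0.33, SE 0.0813, limma adjusted p = 0.016, and 0.0531 with the replicate number as a block). The other ID listed as SOD3 stayed below 0.6 TPM.

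For catalase, the peroxisomal enzyme that splits hydrogen peroxide, the groups overlapped. CAT was at 12.9, 12.6, 10.3 and 12.96 TPM in controls 1 to 4, against 9.46, 9.71, 10.8 and 9.06 TPM in mutants 1 to 4, with control replicate 3 below mutant replicate 3 (ratio 0.801, log2 change -0.29, SE 0.0773, limma adjusted p = 0.023). The call was lost without control replicate 1 (0.0605), 2 (0.0572) or 4 (0.0633), without mutant replicate 1 (0.0587), 2 (0.0507) or 4 (0.0616), and with the replicate block (0.0683).

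**Figure D3:**
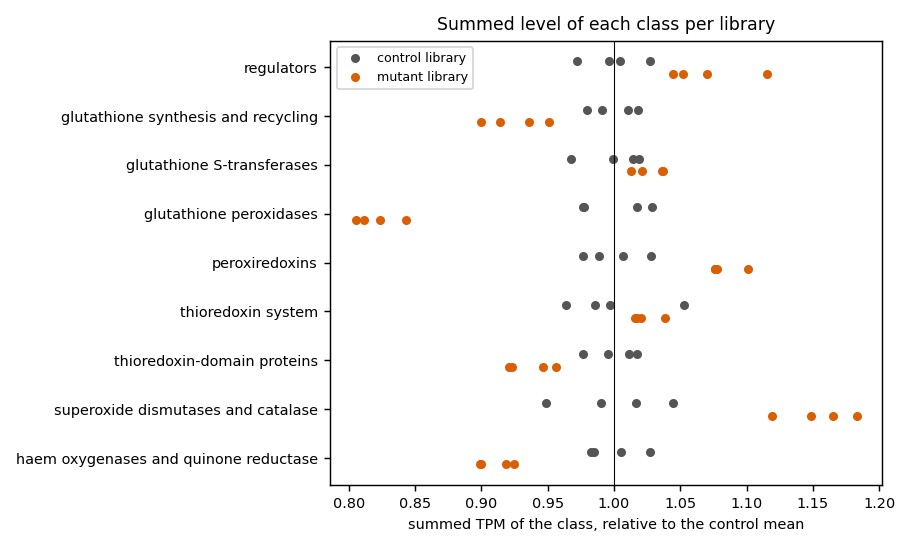
Summed TPM of each class in each library, divided by the mean of the 4 control libraries. Control and mutant libraries are apart for 7 of the 9 classes, most widely for glutathione peroxidases, and overlap for glutathione S-transferases and the thioredoxin system.

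Set side by side, the summed levels of the classes give the order of these differences. The ratio of mutant to control sums was 0.821 for glutathione peroxidases, 0.91 for haem oxygenases with NQO1, 0.926 for glutathione synthesis and recycling and 0.937 for thioredoxin-domain proteins. It was 1.02 for the thioredoxin system, 1.03 for glutathione S-transferases, 1.07 for the regulators, 1.08 for peroxiredoxins and 1.15 for superoxide dismutases with catalase. A few abundant genes set these sums, and all 67 IDs together came to 5627.6 ± 122 TPM in controls and 5571.5 ± 27.3 TPM in mutants (SD, n = 4 each).

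No ratio between duplicated copies passed the test after adjustment. The ratio was compared for 9 pairs of names, with an exact permutation test over 70 assignments (two-sided, smallest p 0.0286) adjusted over the pairs. In 5 pairs all mutant libraries lay beyond all controls and the test reached its smallest p (exact permutation p = 0.0286, adjusted p = 0.0514), so 0 of 9 passed after adjustment. With 5 of 9 pairs at the smallest p, none could pass, however large its difference. The outcome therefore does not show that the copies kept their ratio. The share of other gene pairs with separate ratios was not computed. The TPM of single genes did not overlap for 26.1% of all genes. One pair, txnl4a with TXNL4B, met the naming rule although its members are distinct genes. Without it the same 5 pairs had an adjusted p of 0.0457 in the exact permutation test. Without the pair of PRDX1 IDs as well, whose identity is not settled, the 4 that remained were at an adjusted p of 0.05 in that test, not under the threshold. Both choices were made after the values were seen.

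The widest difference was between the gstt1 copies, where the log2 ratio of gstt1a to gstt1b was 1.69 ± 0.112 in controls and 2.21 ± 0.103 in mutants (SD, n = 4 each). For the PRDX1 IDs the log2 ratio went from 1.46 ± 0.0299 to 1.15 ± 0.0378, with the more abundant ID at 73.5% of their sum in controls and 69.0% in mutants. For NFE2L2 over nfe2l2b it went from 2.27 ± 0.0976 to 2.06 ± 0.0867, a difference that was -0.38 with a pseudocount of 0.1 and -0.05 with one of 5. With the pseudocount of 5 this pair no longer reached the smallest p (exact permutation test, adjusted p = 0.257). For gpx4a over GPX4 it was 0.97 ± 0.0303 in controls and 0.86 ± 0.0133 in mutants, and for TXN over txnb it was 1.52 ± 0.0551 and 1.67 ± 0.0267 (SD, n = 4 each). The pairs gpx1, HMOX2, KEAP1 and txnl4 had exact permutation p-values from 0.2 to 0.571.

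**Figure D4:**
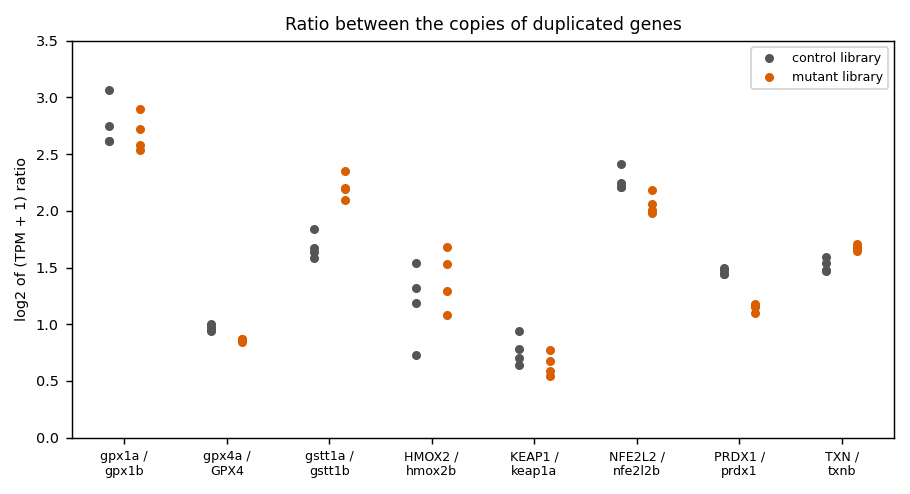
Log2 ratio of (TPM + 1) between the copies of 8 duplicated members in each library, the more abundant copy over the other. Control and mutant libraries are apart for gpx4, gstt1, NFE2L2, PRDX1 and TXN and overlap for gpx1, HMOX2 and KEAP1.

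Genes of the same pathway that carry other names changed about as often as genes in general. Of 99 tested, 14 rose and 11 fell (25.3%, beside 22.6% of all genes), and their median log2 change was 0.01 (median absolute change 0.09). With the replicate number as a block 9 were higher. The largest changes were in FOSL1, an AP-1 factor, which fell from 2.27 ± 0.294 to 0.965 ± 0.119 TPM, and in msrb2, a mitochondrial methionine sulfoxide reductase, which rose from 2.29 ± 0.231 to 4.29 ± 0.215 TPM (SD, n = 4 each; limma adjusted p = 0.000326 and 0.000111).

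In glutathione metabolism outside the named families, 4 of 19 rose and 0 fell, a called share of 21.1% beside the 22.6% of all genes. They were CHAC1, which breaks glutathione down (ratio 1.23, limma adjusted p = 0.000618), slc3a2a, a heavy chain of the cystine importer (ratio 1.19, 0.00153), GGCT (ratio 1.22, 0.0478) and PSAT1 of serine synthesis (ratio 1.07, 0.0327). The other heavy-chain copy, SLC3A2 (ENSDARG00000037012), had a ratio of 1.08 and did not pass (limma adjusted p = 0.116). The importer gene slc7a11 lay below 1 TPM and was not tested. GGCT lost its call when any library but control replicate 4 was left out (adjusted p from 0.0745 to 0.112), and with the replicate block (0.0684), no mean-variance trend (0.0518) or no filter on low values (0.0825). AIFM2, the ferroptosis suppressor that recycles ubiquinone, rose from 23.9 ± 0.861 to 29.5 ± 1.64 TPM (SD, n = 4 each; limma adjusted p = 0.00155). The exporter gene ABCC1 rose to a ratio of 1.31 (0.0242), a call lost without control replicate 1 (0.056) or 4 (0.0646), mutant replicate 1 (0.0619) or 2 (0.0593), and with the block (0.0552). PRMT1, an arginine methyltransferase, rose to a ratio of 1.19 (limma adjusted p = 0.0128).

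The genes of selenoprotein synthesis and further selenoproteins had 2 of 12 lower and 0 higher, a called share of 16.7% beside the 22.6% of all genes. The selenoprotein gene selenow1 fell from 399.5 ± 6.79 to 338.6 ± 6.96 TPM (SD, n = 4 each; limma adjusted p = 6.47e-05), and TRNAU1AP, named for its association with the selenocysteine tRNA, fell to a ratio of 0.854 (0.0014). Its more abundant copy trnau1apb, at 72.5 TPM in controls against 19.1 TPM for TRNAU1AP, had a ratio of 0.95 and did not pass (0.24). LPCAT3, which builds polyunsaturated membrane lipids, fell to a ratio of 0.854 (0.0103), and MGST1 (ENSDARG00000022165), a microsomal transferase, to 0.869 (0.0022). Another ID listed as MGST1, ENSDARG00000032618, had a ratio of 0.999 and did not pass (0.989). Of 6 microsomal and other transferases tested, 1 rose and 2 fell, a called share of 50% beside the 22.6% of all genes. The one that rose was MGST2 (ratio 1.08, limma adjusted p = 0.0182), and mgst3b fell with MGST1 (ratio 0.944, limma adjusted p = 0.0404). Of 10 genes that supply NADPH, IDH1 (ratio 1.13, 0.0049) and NNT (ratio 1.09, 0.00707) rose and 0 fell, a called share of 20% beside the 22.6% of all genes. Of 5 genes of iron and haem handling, 2 rose and 1 fell, a called share of 60%. The gene blvrb rose to a ratio of 1.15 (0.0045) and fth1a to 1.05 (0.013), while SLC40A1 fell to 0.894 (0.0193). BLVRA had a ratio of 1.2 and did not pass (0.0719). TXNIP (ENSDARG00000036107), the inhibitor of thioredoxin, fell from 150.7 ± 3.53 to 135.9 ± 1.31 TPM (SD, n = 4 each; 0.00164), all by limma adjusted p. Another ID of that symbol, ENSDARG00000070000, had a ratio of 1.02 and did not pass (limma adjusted p = 0.849).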

How the data were processed

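RNA sequencing of whole larvae gave 8 libraries, 4 control and 4 mutant, grouped by their titles. The authors deposited TPM per Ensembl gene, made with STAR 2.7.3a and RSEM 1.3.1 on GRCz11, per the submitters' processing notes. RSEM divides reads among near-identical genes by an estimate, and TPM keeps no depth, so no count-based interval is given. No source used here states the strand setting, which leaves overlapping genes uncertain. No batch is labelled.

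Symbols came from a table that named 29201 of 32520 IDs (89.8%). Groups were compared with limma 3.58.1 under R 4.3.3, two-sided and with a mean-variance trend, using log2(TPM + 1) over 16560 IDs with a mean of at least 1 TPM, Benjamini-Hochberg adjusted over all of them, at 0.05, tested on simulated data. Fold changes on this scale understate those of low genes, and ratios are of mean TPM. Copy ratios used exact permutation tests (scipy 1.17.1). The pathway list matched 106 of 118 names.

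Text values were given for the members that passed, the 5 nearest the threshold, the most abundant of each class, the copies of each pair, and up to 12 pathway genes by size of change, and the others were named after their values were seen. Members and lists were chosen with earlier results of these data known. Alternatives were pseudocounts of 0.1 and 5, other filters, 2 rescalings, no trend, IDs with unique symbols, a replicate block and leaving out each library.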

Additional observations from a re-analysis of the deposited data

Results flagged for a closer look

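In 142 groups of 4 libraries examined, 5 had a library far from the other 3, where chance alone flags about 1 in 20 groups. Mutant replicate 3 held the highest gpx4a, at 456.45 TPM against 437.16 to 439.88 TPM in the other mutants, still below every control. Control replicate 4 was high for PRDX1 (ENSDARG00000025350), at 429.64 TPM against 418.96 to 420.52 TPM, and for PRDX4, at 96.17 TPM against 86.81 to 87.17 TPM. Control replicate 3 was low for CAT, at 10.3 TPM against 12.57 to 12.96 TPM, and without it the log2 change of CAT was -0.36 (limma adjusted p = 0.00382). Mutant replicate 1 was high for TXNDC16, at 2.54 TPM against 2.42 to 2.44 TPM.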

How the results depend on the processing

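Across 17 alternatives, members that rose numbered 10 to 17 and members that fell 11 to 14, and 21 of the 28 called members passed under every alternative that tested them. The exceptions were gpx9, TXNL1, PRDX1 (ENSDARG00000025350), SOD3, TXNRD2, nfe2l2b and CAT. No value that passed anywhere changed sign. The members' median log2 change of -0.037 became -0.025 among genes of at least 5 TPM, -0.023 after median-of-ratios rescaling and -0.015 after rescaling without mitochondrial and the 50 most abundant genes, and ran from -0.035 to -0.015 when a library was left out. Same-numbered libraries did not deviate together (correlations from -0.102 to -0.029). No label says what a shared number stands for, and these correlations cannot settle it. With the replicate block 10 members were higher and 13 lower, 2932 genes passed instead of 3745, and 9 pathway genes were higher instead of 14; the cause was not tested. Without the pair txnl4a and TXNL4B, added after seeing the data, the differences in log2 ratio of gpx4 (-0.11), gstt1 (0.53), nfe2l2 (-0.21), prdx1 (-0.31) and txn (0.15) passed, since fewer pairs were adjusted for, and without the PRDX1 pair as well none passed (adjusted p of 0.05 in 4). Leaving out a library, the copy ratios were values with no test, since 3 against 4 libraries cannot reach the threshold. The depth is unknown, which limits what can be said of members near 1 TPM.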
